A study of Rattus norvegicus with 10 samples.

Results

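Enpp1 and Slc28a2, 2 genes that act on purines outside the cell, were read from the linear-transcript probes of a rat circular RNA (circRNA) array. A probe was taken when it was no control and its listed transcript was the RefSeq transcript of either gene, NM_053535 for Enpp1 and NM_031664 for Slc28a2. Each gene had 1 probe (A_43_P12841 and A_44_P1024721) printed in 10 spots, so the 2 genes were 2 of the 38 genes named by 39 of the 62 linear-transcript probes, on arrays that also carried 14145 circRNA probes. The RefSeq gene table used for names lists 3 transcripts of Enpp1 and 10 of Slc28a2. Which of them each probe reads was not examined, because probe sequences were not used here.

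Enpp1 encodes an ectonucleotide pyrophosphatase, a cell-surface enzyme that splits extracellular ATP into AMP and pyrophosphate. Pyrophosphate holds back mineral deposition in cartilage and other joint tissue, and AMP is turned by other surface enzymes into adenosine, a nucleoside that dampens inflammation through its own receptors. Slc28a2 encodes a sodium-driven concentrative nucleoside transporter that carries purine nucleosides such as adenosine, and uridine, from the outside into the cell.

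Synovial tissue, the lining of the joint, came from male rats aged 7 to 8 weeks and labelled day 21. The 5 CIA samples were from rats with collagen-induced arthritis, an inflammation of the joints provoked by immunising animals with collagen, and the 5 normal samples were from rats without it. The strain, the immunisation scheme and any pooling of animals are not given in the sources used here, and the replicate numbers are not said to be separate animals, so the p-values cover only the spread among these samples, and part of it may be technical. All samples were digested with RNase R, which breaks down linear RNA and spares circles, so both probes read linear transcript that remained or circles that share the probed exon. The arrays were scanned in 2 runs: run 1 held all 5 CIA arrays and normal replicate 1, and run 2 held normal replicates 2 to 5.

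The files show array brightness rather than sequencing depth. Each array's reference was the 75th percentile of its circRNA signals, which was 133 to 315 units on the normal arrays and 263 to 381 units on the CIA arrays. By scan run it did not overlap, with 263 to 381 units in run 1 and 133 to 198 units in run 2. Normal replicate 1 was the brightest normal array by this measure. Levels below are log2 signals relative to that percentile. Of 37 markers fixed for macrophages, T cells, fibroblasts, cartilage, muscle and other cell types, 1 had a named probe, the nerve marker Map2, so the cell makeup of the samples could not be checked. The level of Map2 was -3.77 ± 0.24 (SD, n = 5) on the normal arrays and -3.78 ± 0.55 (SD, n = 5) on the CIA arrays.

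Slc28a2 was read as higher in arthritic synovium on average, but the difference did not pass the test, and the highest value of all belonged to a normal sample. Its level on normal replicates 1 to 5 was 0.97, -1.14, -0.55, -0.54 and 0.33. On CIA replicates 1 to 5 it was 0.69, 0.35, 0.59, 0.79 and 0.78. The CIA arrays lay close together and each lay above the normal mean, while the normal arrays spread from the lowest to the highest of the 10, so that the groups overlapped through normal replicate 1.

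The group means of Slc28a2 were -0.19 ± 0.83 (SD, n = 5) in normal tissue and 0.64 ± 0.18 (SD, n = 5) in CIA tissue. The difference, CIA minus normal, was 0.82 on the log2 scale (SE 0.37), or 1.77-fold with a 95% interval of 1.02-fold to 3.08-fold. In limma, fitted over 13953 circRNA and linear-transcript probes, the unadjusted p was 0.044 and the Benjamini-Hochberg adjusted p was 0.14. The two-sided exact permutation test of the single value gave p = 0.087, or 0.26 after adjustment over the 3 values tested this way. In whole tissue, a change in the number of cells of a type and a change in the RNA of each cell cannot be told apart. Neither can be told apart here from a difference in what the RNase R digestion left, or from scan run.

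An unadjusted p under 0.05 was common on these arrays. It was reached by 4521 of the 13953 probes (32.4%) and by 21 of the 62 linear-transcript probes (33.9%), while 0 probes (0%) passed the adjusted threshold of 0.05 in limma. The unadjusted p of Slc28a2 did not set it apart from the array: 30.1% of all probes had a smaller one, and 18.5% had a larger difference in the same direction. The median difference over all probes was 0.19, so Slc28a2 stood 0.63 above it on the log2 scale.

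**Figure D1:**
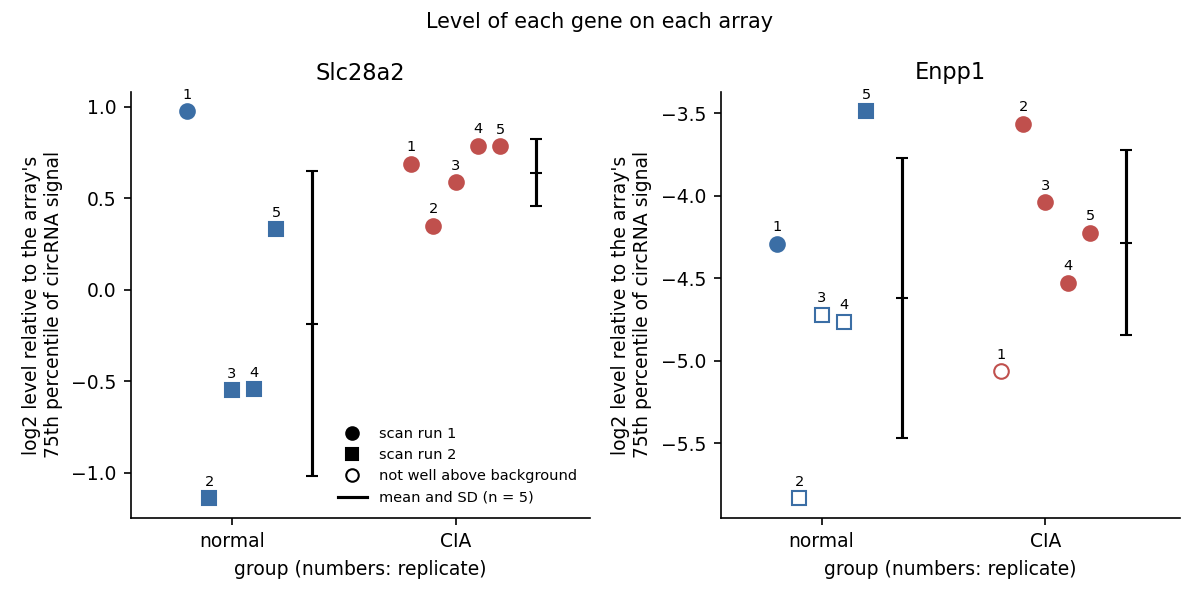
Log2 level of Slc28a2 (left) and Enpp1 (right) on each array by group, with the array's own circRNA reference (75th percentile) at 0; numbers give the replicate, circles scan run 1, squares scan run 2, open symbols arrays on which the probe was not well above background, and bars the mean and SD. Normal replicate 1, the only normal array of scan run 1, has the highest Slc28a2 level (0.97), above all 5 CIA arrays.

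The levels of Slc28a2 also divided by scan run. The 6 arrays of run 1 held 0.35 to 0.97 and the 4 arrays of run 2 held -1.14 to 0.33, without overlap. This was also the case for 3285 of all probes (23.5%). The runs nearly touched (0.35 and 0.33), normal replicate 1 (0.97) lay above every other array of run 1, and the cause of the split was not tested. Compared by run in place of group, a comparison chosen after seeing the data, Slc28a2 was 1.17 higher on run 1 (SE 0.27, limma adjusted p = 0.0061), and 5727 of all 13953 probes (41%) passed in that comparison. With scan run as a block, the group difference of Slc28a2 was -0.34 (SE 0.48), the opposite direction, with a 95% interval of -1.39 to 0.72. Within run 1 alone it is the CIA mean minus normal replicate 1, and has the same value. Without normal replicate 1, Slc28a2 passed the test (1.11, SE 0.29, limma adjusted p = 0.015), as did 5007 of all probes (35.9%), and its groups no longer overlapped, as for 3430 of all probes (24.6%). Every normal array left then came from run 2 and every CIA array from run 1, so that run and group cannot be told apart.

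The spread of Slc28a2 between the normal arrays was far wider than that between its spots. All 100 of its spots were well above background and 0 were saturated. The geometric mean of its processed signal was 619, 84.9, 91.0, 110 and 249 units on normal replicates 1 to 5 and 530, 335, 572, 619 and 641 units on CIA replicates 1 to 5. The SD over the spots of 1 array was 0.049 to 0.14 on the log2 scale, or 0.035 to 0.085 without the 12 spots marked as outliers, against 0.83 over the 5 normal arrays and 0.18 over the 5 CIA arrays. Without scaling between arrays the difference was 1.65 (SE 0.51, limma adjusted p = 0.023), but then 6787 of all probes (48.6%) passed and the median probe was itself 1.02 higher on the CIA arrays. The scaling subtracts 1 value per array from every probe, so the distance of Slc28a2 from the median is the same with and without it by construction.

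**Figure D2:**
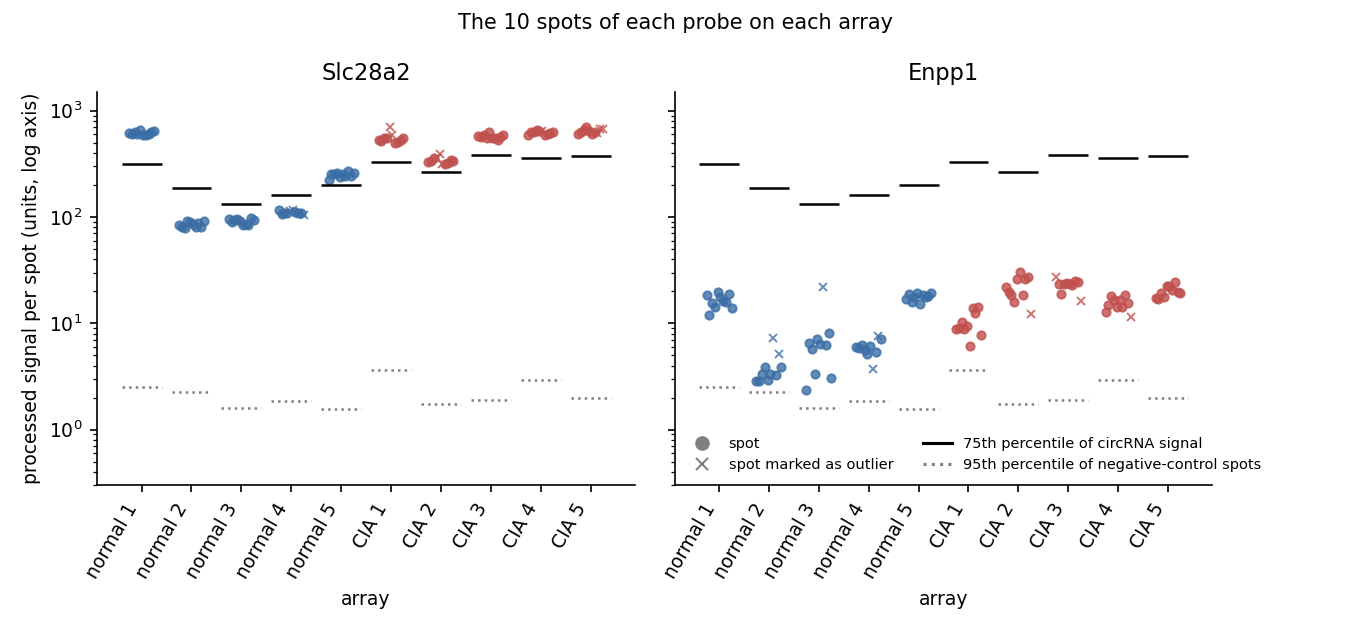
Processed signal of each of the 10 spots of the Slc28a2 (left) and Enpp1 (right) probe on each array, on a log axis; crosses are spots marked as outliers, black lines each array's 75th percentile of circRNA signal and dotted lines the 95th percentile of its 77 negative-control spots. Spots of 1 array lie close together for Slc28a2, and Enpp1 lies between the negative controls and the reference on every array.

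Enpp1 was dim and showed no difference between the groups that passed the test. It was well above background, on at least 50% of its spots, on 2 of 5 normal arrays (replicates 1 and 5) and on 4 of 5 CIA arrays (all but replicate 1). The two-sided Fisher's exact test of this share gave p = 0.52. Detection also differed by scan run, though without a clean split: 5 of 6 arrays passed in run 1 and 1 of 4 in run 2. Run 1 holds all the CIA arrays, and the difference by run was not tested. The call is made on signal before scaling, and run 1 was the brighter run by the circRNA reference. The share of all probes called in each group or run is not given here, so these counts are not read as particular to Enpp1. The level of Enpp1 on normal replicates 1 to 5 was -4.29, -5.84, -4.72, -4.77 and -3.49. On CIA replicates 1 to 5 it was -5.06, -3.56, -4.04, -4.53 and -4.22. A normal array, replicate 5, read highest and another, replicate 2, read lowest, so the CIA arrays lay inside the normal range.

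The group means of Enpp1 were -4.62 ± 0.85 (SD, n = 5) in normal tissue and -4.28 ± 0.56 (SD, n = 5) in CIA tissue. The difference was 0.34 (SE 0.42, limma adjusted p = 0.59), or 1.26-fold with a 95% interval of 0.67-fold to 2.37-fold, which holds values on both sides of no difference, and 4 of the 5 CIA arrays lay above the normal mean. The two-sided exact permutation p was 0.51. Of all probes, 42.4% had a larger difference in the same direction. The direction depended on the processing: the difference was -0.49 (SE 0.18, limma adjusted p = 0.081) after normexp background correction, where the median of all probes was -0.19 and the exact permutation p of Enpp1 was 0.016 (0.048 adjusted over 3 values), and -0.15 (SE 0.23) after quantile normalization. A low p was common after normexp. The unadjusted limma p was under 0.05 for 5165 of all 13953 probes. It was so for 30 of the 62 linear-transcript probes, 26 of them lower in CIA, and their median difference was -0.34. With scan run as a block the difference of Enpp1 was 0.0060 (SE 0.73). Compared by run in place of group, Enpp1 was 0.42 higher on run 1 (SE 0.41, limma adjusted p = 0.44), and the runs overlapped.

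Signals of Enpp1 lay near the floor of the array. The geometric mean of the processed signal was 16.1, 3.28, 5.04, 5.91 and 17.6 units on normal replicates 1 to 5 and 9.81, 22.2, 23.1, 15.6 and 19.9 units on CIA replicates 1 to 5. All 100 spots still exceeded the 95th percentile of the 77 negative-control spots of their own array, which was 1.56 to 3.62 units. Before background subtraction, the median spot signal of Enpp1 was 25.3 to 39.0 units, beside 17.0 to 21.0 units for the negative-control spots and 12 to 14 units for the local background. On normal replicate 2, where Enpp1 was lowest, 0 of 10 spots were well above background, and on normal replicate 5, where it was highest, all 10 were. The SD over spots reached 0.63 on normal replicate 3, where 3 of 10 spots were well above background.

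The change of the 2 genes was then compared within each array, where a scaling that subtracts 1 value per array cancels. The log2 level of Enpp1 minus that of Slc28a2 was -5.26, -4.69, -4.17, -4.22 and -3.82 on normal replicates 1 to 5 and -5.75, -3.91, -4.63, -5.31 and -5.01 on CIA replicates 1 to 5. On 4 of the 10 arrays (normal replicates 2 to 4 and CIA replicate 1) Enpp1 was not well above background, so these 4 values rest on a dim probe and the test below on them too. The difference between the group means was -0.49, with CIA lower, and 4 of 5 CIA arrays lay below the normal mean. The exact permutation test, two-sided, gave p = 0.24 (or 0.36 adjusted over 3 values, the smallest p of this design being 0.0079). Quantile normalization and normexp do not subtract 1 value per array, so their effect does not cancel in this comparison. How far the next 2 values follow array brightness was not tested. After quantile normalization the difference was -0.95 (exact permutation p = 0.024, or 0.071 adjusted over the same 3 values). After normexp it was -1.20 (exact permutation p = 0.032, or 0.048 adjusted). With scan run as a block it was 0.34, the opposite direction.

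**Figure D3:**
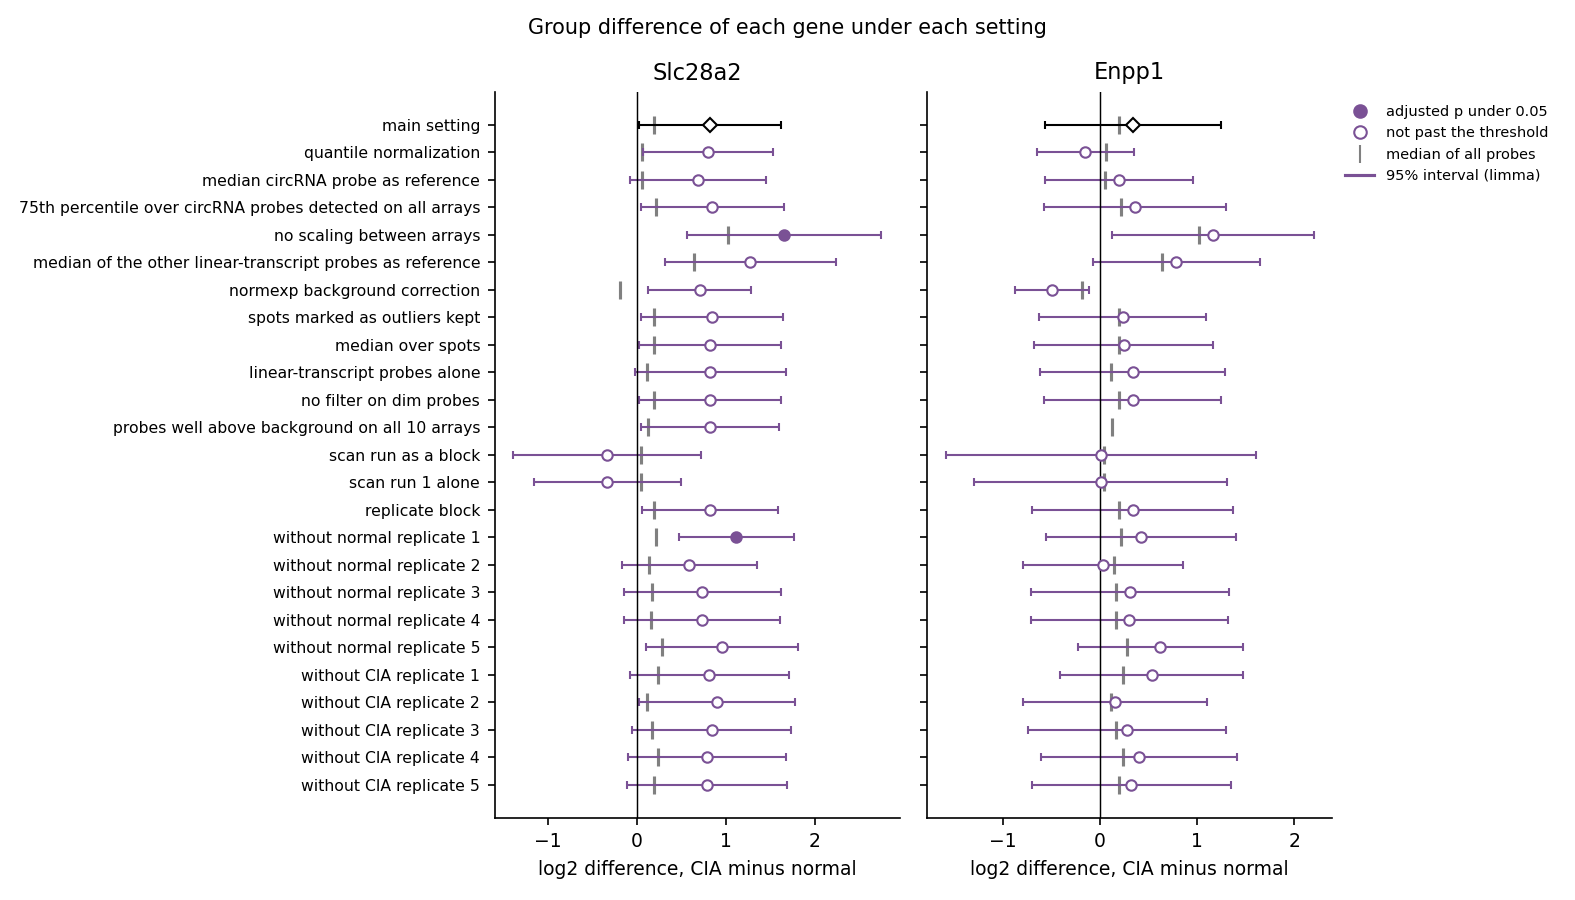
Log2 difference, CIA minus normal, of Slc28a2 (left) and Enpp1 (right) with its 95% interval in limma under the main setting (diamond) and each alternative; filled symbols passed an adjusted p of 0.05 and grey ticks mark the median of all probes in that setting. By limma adjusted p, Slc28a2 passes without scaling (1.65) and without normal replicate 1 (1.11), and it lies below 0 in the fits within scan run (-0.34). Enpp1 passes by limma adjusted p in none of the settings that gave it a value.

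The rest of the purine pathway was hardly measured. Of 49 genes listed for nucleotide-splitting enzymes, ATP and adenosine receptors, nucleoside transporters, purine salvage and pyrophosphate handling, 4 had a named probe: Enpp1, Slc28a2, P2rx2 and Hprt1. None of the 4 passed the adjusted limma test of the main setting in either direction. P2rx2, which encodes a channel opened by extracellular ATP, had levels of -2.13, -0.54, -0.71, -0.78 and -1.39 on normal replicates 1 to 5 and of -2.19, -1.36, -1.59, -0.37 and -0.88 on CIA replicates 1 to 5. The normal range lay inside the CIA range, and the difference was -0.17 (SE 0.40, limma adjusted p = 0.79). With scan run as a block it was 0.85 (SE 0.59), the opposite direction.

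Hprt1 encodes the salvage enzyme that turns hypoxanthine and guanine back into nucleotides inside the cell. Its level was -2.54, -4.24, -3.76, -3.84 and -3.09 on normal replicates 1 to 5 and -4.91, -2.93, -3.29, -1.39 and -4.24 on CIA replicates 1 to 5. The CIA arrays held both the lowest and the highest value. The difference was 0.14 (SE 0.58, limma adjusted p = 0.88), and it was -0.81 (SE 0.98) with scan run as a block. By size of difference, Slc28a2 was number 8, Enpp1 number 21, Hprt1 number 29 and P2rx2 number 37 of the 62 linear-transcript probes, counted from the most positive.

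**Figure D4:**
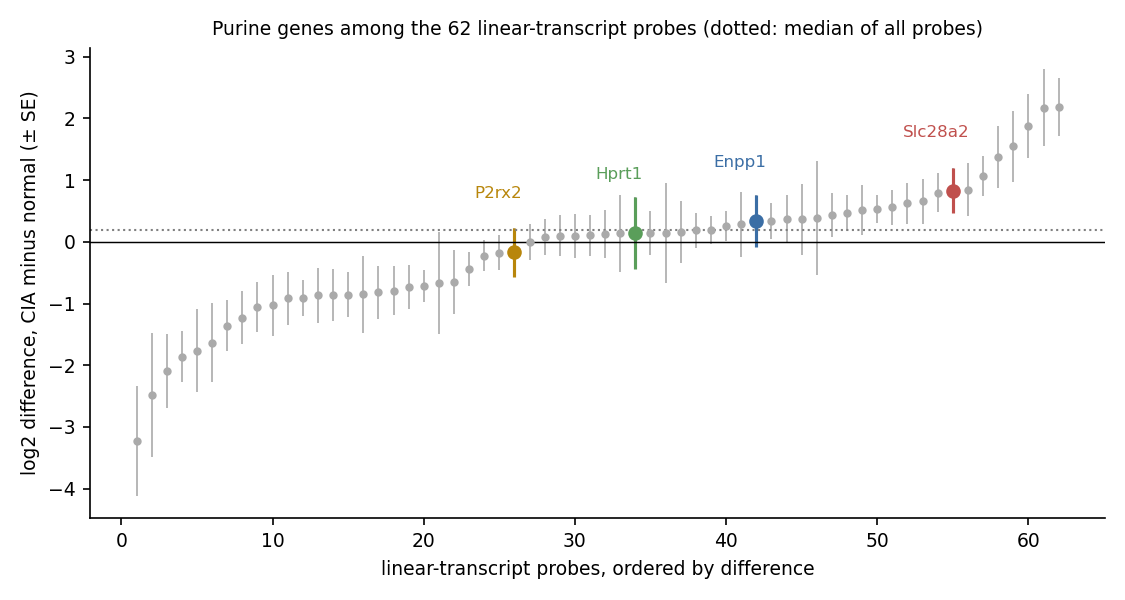
Log2 difference, CIA minus normal, with its SE for the 62 linear-transcript probes in order of size; the 4 purine genes are coloured and the dotted line is the median of all probes (0.19). Slc28a2 (0.82) lies toward the upper end, and Enpp1 (0.34), Hprt1 (0.14) and P2rx2 (-0.17) lie near the median.

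Profiles over the 10 arrays were compared by the root mean square distance between levels centred on each probe's mean, over 36 named probes of other genes that were well above background on at least 5 arrays. Nearest to Slc28a2 were Napepld, which makes lipid mediators of the N-acylethanolamine family (distance 0.34 on the log2 scale), Gusb, a lysosomal glucuronidase (0.41), and Dlg4, a synaptic scaffold (0.42). In all 3, as in Slc28a2, normal replicate 1 lay above normal replicates 2 to 4, but they were chosen for a like profile. Enpp1 and Hprt1 had this order too, and P2rx2 and Map2 had normal replicate 1 below those arrays. Other linear-transcript probes outside the purine list also had the order and others did not, so it is not particular to these genes. Its share over all probes was not counted. Nearest to Enpp1 were Cse1l, a nuclear export factor (0.43), Gusb (0.48) and Nat1, an acetyltransferase (0.50). Enpp1 and Slc28a2 were 0.62 apart, which placed Slc28a2 number 8 for Enpp1 and Enpp1 number 9 for Slc28a2. The nearest genes depended on the processing: of the 3 reported, 1 was shared for Enpp1 and 0 for Slc28a2 after quantile normalization, and 1 for each after normexp.

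**Figure D5:**
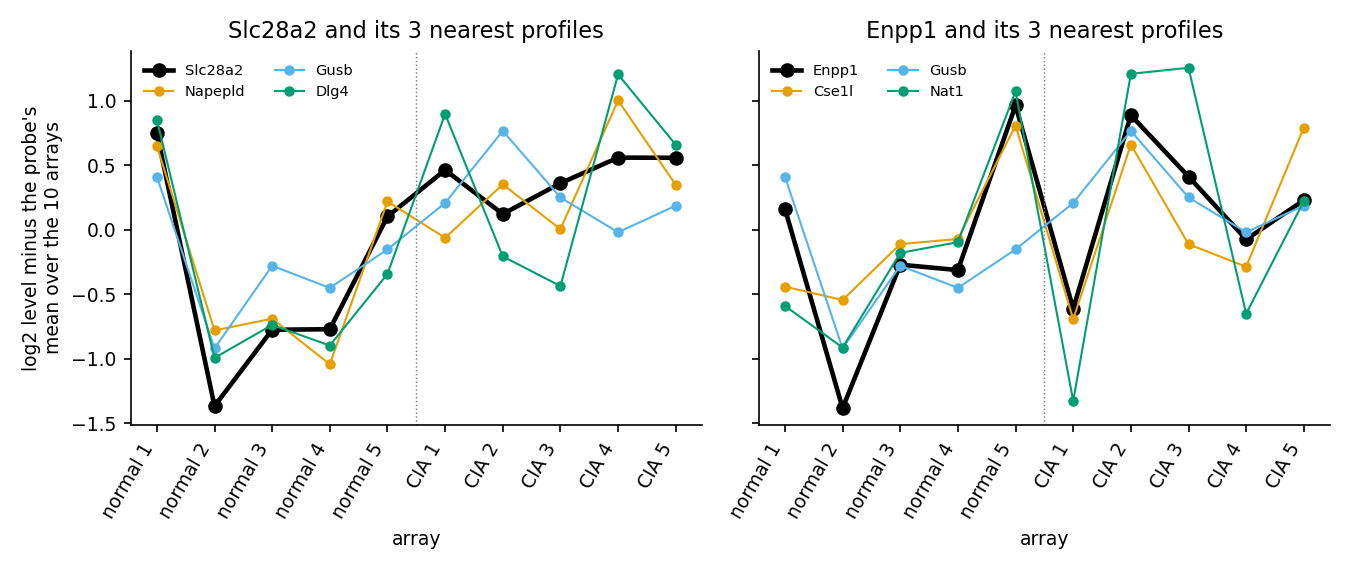
Log2 level minus the probe's mean over the 10 arrays for Slc28a2 (left) and Enpp1 (right, both black) and the 3 named probes nearest to each; lines only join the points of a gene, since replicates have no order. Slc28a2 and its nearest genes are high on normal replicate 1 and low on normal replicates 2 to 4, and Enpp1 is lowest on normal replicate 2 and highest on normal replicate 5.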

How the data were processed

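The deposited intensity files are single-colour output of Agilent Feature Extraction (version 11.0.1.1), per the file headers; the processed intensity is background-subtracted within the array and not normalized between arrays. limma appears in the submitters' processing notes, with no role stated. The deposited value table holds circRNA probes only and was not used. Spots marked as outliers were left out and log2 signals averaged over the others of a probe, and the 75th percentile of the array's circRNA probes was subtracted. The fit (lmFit and eBayes, limma 3.58.1, R 4.3.3) held 13891 circRNA probes well above background on at least 5 arrays and free of outlier spots, and all 62 linear-transcript probes, with Benjamini-Hochberg adjustment over both kinds together. The procedure was tested on simulated data. Symbols came from a RefSeq table of GRCr8, matched by accession without version; coordinates are not given because the array design names another build. Scan runs were read from the file headers. Replicate numbers were checked for pairing and not used as pairs, since same-numbered arrays did not deviate together in every pair. Named genes were the 2 genes, those of the purine and marker lists with a named probe, and the 3 nearest profiles of each gene. Genes, lists and tests were chosen with earlier results of these data known. The number of arrays limits the precision. Plots used Python 3.11.15 with matplotlib 3.10.9.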

Additional observations from a re-analysis of the deposited data

How the results depend on the processing

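Under 24 alternatives the difference of Slc28a2 kept its direction and its side of the threshold in 20; Enpp1 did so in 21 of 23. Without scaling between arrays Slc28a2 passed at 1.65, and within scan run, as a block or in run 1 alone, it was -0.34 in both. Enpp1 was -0.15 after quantile normalization and -0.49 after normexp, which adds an offset of 50. The cause of this reversal was not tested. Leaving out each array gave 0.59 to 1.11 for Slc28a2 (limma adjusted p 0.015 to 0.33, under 0.05 only without normal replicate 1), 0.033 to 0.62 for Enpp1 (adjusted p 0.26 to 0.97; lowest without normal replicate 2, highest without normal replicate 5) and -0.74 to -0.28 for Enpp1 minus Slc28a2 (exact permutation p 0.087 to 0.44; farthest from 0 without CIA replicate 2, nearest without CIA replicate 1). That last difference was -0.95 with quantile normalization and -1.20 with normexp, with exact permutation p adjusted over 3 values of 0.071 and 0.048, and 0.34 within scan run, where 6 arrangements allow no p under 0.17.

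The count of linear-transcript probes past the adjusted threshold in limma was 0, and 25 without scaling, 13 with the median of the other linear-transcript probes as reference, 2 when they were fitted alone, and 0 to 26 when each array was left out (26 without normal replicate 1). Over all probes in the fit the count was 0, and 20 with quantile normalization, 3686 with that median, 6787 without scaling, 5007 without normal replicate 1 and 1 without CIA replicate 2. No scaling and that median shift all probes of an array alike (median probe 1.02 and 0.64, against 0.19): P2rx2 was 0.66 and 0.28 there but stayed 0.36 below the median probe. It was 0.85 within scan run, and -0.42 to 0.059 without each array. Hprt1 changed to -0.20 with quantile normalization, -0.33 with normexp and -0.81 within scan run, and -0.35 to 0.53 without each array. Map2, whose difference was -0.0074, was 0.82 without scaling and 0.44 with that median, again 0.20 below the median probe, and 0.016 with the percentile over probes detected on all arrays, a like shift. It became 0.0042 with the median over spots and 0.077 within scan run, and -0.23 to 0.12 without each array. Apart from the shifts of whole arrays, the cause of these changes was not tested.

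With the replicate number as a block the differences were 0.34 for Enpp1 and 0.82 for Slc28a2 (limma adjusted p 0.63 and 0.14), and 0 linear-transcript probes passed; deviations of same-numbered arrays correlated at -0.088 to 0.18 across probes. Enpp1 and its comparison with Slc28a2 gave no value among probes well above background on all 10 arrays. The deposited value table was not found to hold these probes. Signal over background limits Enpp1, and the 1 normal array in scan run 1 limits every value there.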
